A study of Mus musculus with 12 samples.

Results

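Ribosome biogenesis factors are proteins, mostly nuclear and nucleolar, that build ribosomal subunits without becoming part of the finished ribosome. A list of 59 such genes was followed by gene symbol through RNA-seq values of 21671 genes in 12 libraries of 3T9MycER fibroblasts. Of these, 58 had a row in the expression table and 57 entered the tests beside 10958 genes in all. Nop58, a core protein of box C/D particles, was handled by its reads alone because its level could not be placed within a factor of 10-fold, and Noc2l, a nucleolar complex protein of the large subunit, was not analysed here. The members were listed by known function, with earlier results of these data known.

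Ribosomal RNA is transcribed in the nucleolus by RNA polymerase I as a long precursor. Small nucleolar ribonucleoproteins (snoRNPs) modify it, the box C/D class by methylation and the box H/ACA class by pseudouridylation. The small-subunit processome folds and cuts the part that becomes the 40S subunit, while the PeBoW complex and other 60S factors mature the part that becomes the 60S subunit. Many of these genes are known targets of Myc, a transcription factor that promotes cell growth.

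The 3T9MycER cells are immortalised mouse embryo fibroblasts of the 3T9 line. In every group they carry MycER, a fusion of Myc to a hormone-binding domain that 4-hydroxytamoxifen (OHT) activates. There were 6 groups of 2 libraries each: VP + OHT, VP, Y27 + OHT, Y27, DMSO + OHT and DMSO, the solvent. Verteporfin (VP), used against the pairing of YAP with TEAD transcription factors, was given at 20 µM and the ROCK kinase inhibitor Y27632 (Y27) at 50 µM, both for 8 h. The comparisons ask how MycER activation and each inhibitor changed transcript levels, alone and together. The study's paper describes the fibroblasts of its inhibitor experiments as serum-starved and kept in low serum. The series' design text and the paper differ on whether the cells were confluent. No source used here says that the 2 libraries of a group came from separate cultures. The p-values therefore measure the spread between these libraries, which may be technical.

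Sequencing depth was 21857777 to 30856488 reads a library, and 30.4% to 36.1% of reads fell in the genes kept. The levels are RPKM, reads scaled to gene length and library total. Values of at least 1 came without their decimal sign, which was restored from arithmetic on whole reads. Member genes had 88 to 4632 reads in a library. Fibroblast identity was checked with 12 markers: 10 averaged at least 0.5 RPKM, while Thy1 and Lum stayed near 0. Their summed level was 181.8 and 192.6 RPKM in VP libraries and 188.1 and 180.1 RPKM in VP + OHT libraries, against 322.8 and 314.2 RPKM in DMSO libraries. It was 388.8 and 369.2 RPKM in Y27 libraries, and between 291.3 and 369.1 RPKM in Y27 + OHT and DMSO + OHT libraries. Of 7 macrophage and leukocyte markers with a value, 2 averaged at least 0.5 RPKM, and the summed level was 9.25 and 8.97 RPKM in VP libraries and 12.1 and 10.1 RPKM in VP + OHT libraries, against 3.42 and 3.01 RPKM in DMSO libraries and 2.23 to 3.43 RPKM in the other groups. Cd14 and Cd68 made up nearly all of it, whereas the leukocyte gene Ptprc stayed at or below 0.0388 RPKM in every library. None of the 7 epithelial, 5 endothelial or 7 adipocyte and muscle markers averaged 0.5 RPKM. The part of these marker shifts in the results below was not tested.

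Myc with its partner Max binds the E-box, CACGTG, which reads the same on both strands, so promoters of the members were searched for it. RefSeq promoters (GRCm38.p6) were matched by symbol for 51 of 59 members. No entry was used for Npm1, Fbl, Rrp12, Rrs1, Bop1, Nol6, Tcof1 and Gnl3l. Within the 250 bases before the start, 4 members (7.84%) had the motif, against 6.86% of 27025 genes with an entry. The share among members was thus near that of all promoters. The stretches around the motif are shown because Imp4, Nop2, Utp18 and Dhx33 are the members that carried it, with CACGTG in capitals. They lie at chr1:34439681-34439740 (plus strand), chr6:125131796-125131855 (plus), chr11:93885767-93885813 (minus) and chr11:71004435-71004494 (minus).
Imp4: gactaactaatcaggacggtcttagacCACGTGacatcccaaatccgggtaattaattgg
Nop2: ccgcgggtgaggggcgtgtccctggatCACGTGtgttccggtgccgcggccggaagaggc
Utp18: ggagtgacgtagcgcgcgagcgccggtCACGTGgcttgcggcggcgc
Dhx33: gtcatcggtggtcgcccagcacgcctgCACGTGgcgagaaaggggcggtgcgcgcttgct
The motif began 121 bases before the start of Imp4, 60 before Nop2, 20 before Utp18 and 35 before Dhx33. The log2 changes of these genes with OHT in DMSO (0.77, 0.65, 0.53 and 0.48) lay inside the range of searched members without the motif. Over all members that change ran from 0.14 to 1.34, so the placement says little about the motif. A match is a description of these letters, not of binding.

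Averaged over both libraries, 44 of the 57 members had their highest level in VP + OHT, 8 in DMSO + OHT and 5 in Y27 + OHT. The lowest level was in Y27 for 46 members, in DMSO for 9, in VP for 1 and in Y27 + OHT for 1. The median member stood at 17.3 and 17.8 RPKM in VP + OHT, 15.8 and 17.1 in VP, 12.6 and 12.3 in Y27 + OHT, 7.67 and 8.20 in Y27, 14.5 and 13.8 in DMSO + OHT, and 9.52 and 8.78 in DMSO. Both ends of this order, VP + OHT highest and Y27 lowest, held together in 37 members, and the other members departed from it at one end or both. The share of all tested genes with the same order was not counted, so the order is not shown to be particular to the members. Of all tested genes, 33.7% were lower and 17.1% higher in Y27 than in DMSO. In VP + OHT, 39.2% were lower and 25.5% higher than in DMSO + OHT.

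**Figure D1:**
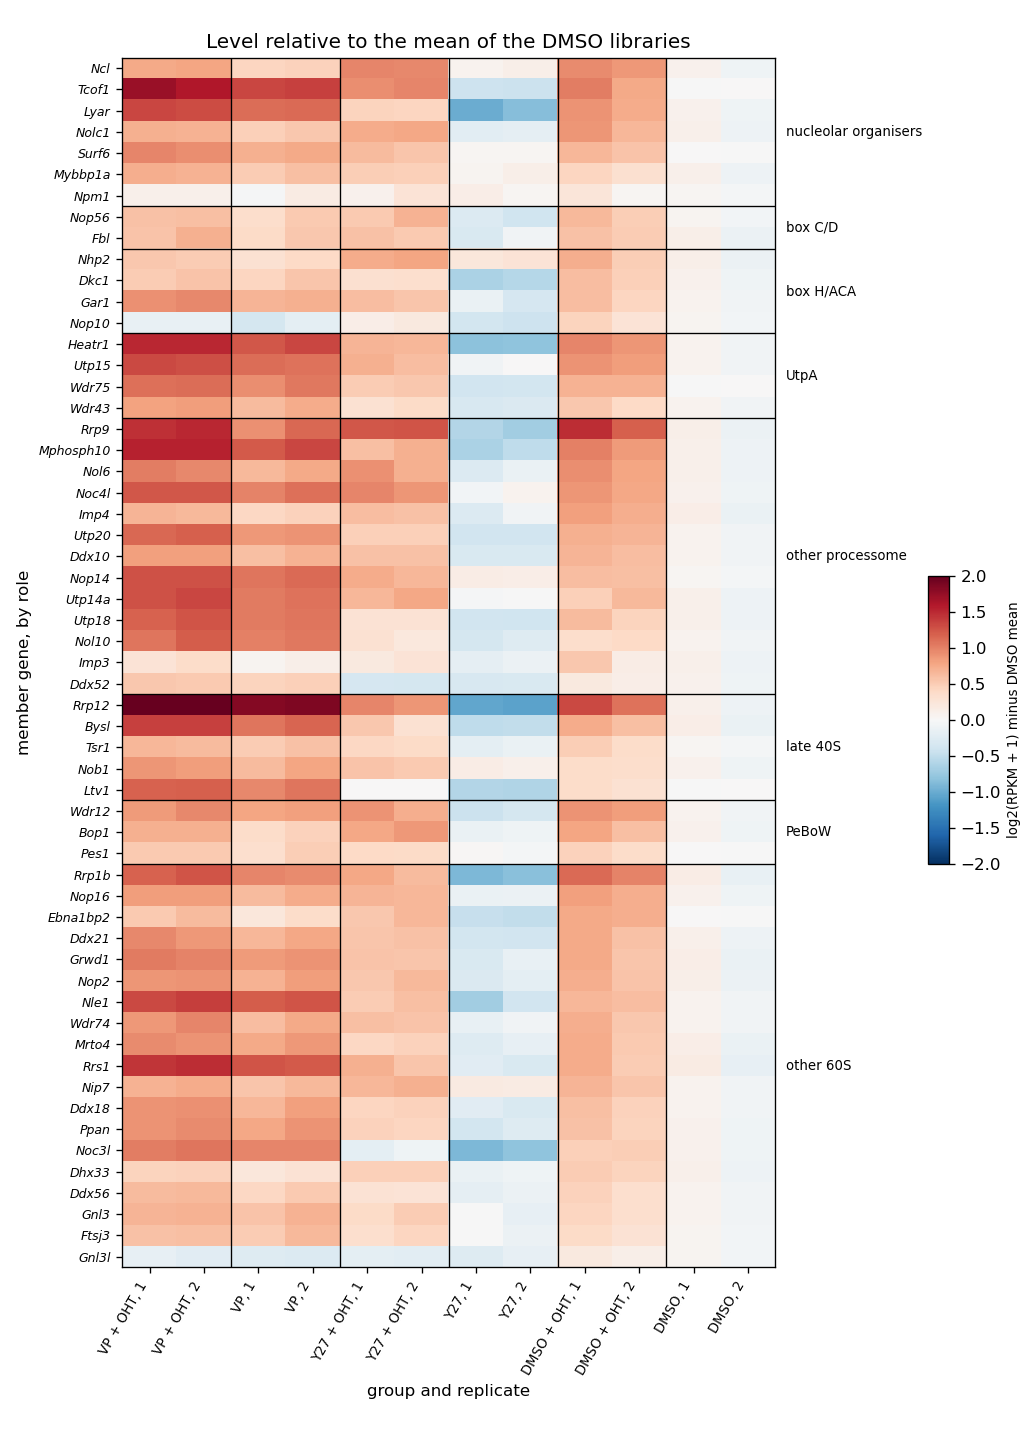
Level of each of 57 members in each library, as log2(RPKM + 1) minus the mean of the 2 DMSO libraries (red higher, blue lower). Rows are genes grouped by role, columns are libraries by group, and colours end at 2 on either side. Y27 columns are mostly blue, VP + OHT columns mostly red, and Rrp12 spans the widest range, 16.3 and 16.8 RPKM in VP + OHT against 1.08 and 1.03 RPKM in Y27.

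OHT in DMSO raised the members almost as a body. Of 57 members 54 were higher in DMSO + OHT than in DMSO, where 24.2% of all tested genes were higher, and 0 were lower, where 10% of all genes were. The median log2 change on log2(RPKM + 1) was 0.62 over the members and 0.06 over all genes (limma, adjusted p under 0.05 as the call). None was lower at an unadjusted p under 0.05 either (14.2% of all genes were), and voom on whole reads also gave 0. Both DMSO + OHT libraries lay above both DMSO libraries in 56 members, and in 40.8% of all tested genes. With median-ratio scaling the calls over all genes were 1976 higher and 1984 lower, against 2648 and 1096 as scaled by the authors, and the members called were 53 higher and 0 lower.

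Among nucleolar organisers, 6 of 7 rose, with a median log2 change of 0.77. Ncl encodes nucleolin, an abundant RNA-binding protein of the nucleolus. It had 20.1 and 19.0 RPKM in DMSO + OHT, against 10.5 and 9.28 RPKM in DMSO, which is 0.91 on the log2 scale (SE 0.07, limma adjusted p = 9.7e-07). Tcof1, which helps RNA polymerase I transcribe ribosomal DNA, had 7.33 and 5.91 RPKM in DMSO + OHT and 3.07 and 3.12 RPKM in DMSO (log2 change 0.89, SE 0.08). Npm1, the histone chaperone nucleophosmin, departed from this. It had 48.2 and 41.6 RPKM in DMSO + OHT against 42.0 and 39.4 RPKM in DMSO, groups that overlapped (log2 change 0.14, SE 0.10, limma adjusted p = 0.34). Npm1 and Nop56 were the most abundant members per length, at 43.6 and 38.6 RPKM over the 12 libraries. Npm1 reached 1.27 reads per base against a maximum of 2.07 among 10883 restored genes of at least 1000 bases. Whether a ceiling on reads per base held its level flat, or made the changes of other abundant members smaller, was not tested. With OHT in DMSO the median log2 change was 0.59 over members of at least 20 RPKM. It was 0.61 over those of 10 to 20 RPKM and 0.69 over those under 10 RPKM. Npm1 is known to have processed pseudogenes, and reads shared with them were not examined.

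The snoRNP cores rose in 6 of 6 tested genes. Fbl, the methyltransferase fibrillarin, had 18.3 and 17.4 RPKM in DMSO + OHT, against 13.1 and 10.9 RPKM in DMSO (log2 change 0.55, SE 0.10, limma adjusted p = 0.00089). Nop56, its box C/D partner, had the highest reads per base of the members (1.33) and had 47.4 and 42.7 RPKM in DMSO + OHT, against 31.2 and 28.8 RPKM in DMSO (log2 change 0.57, SE 0.10). In the H/ACA class Nhp2 changed the most (0.61) and Nop10, a small scaffold protein, the least (0.36). Nop58, followed by reads, had 48.3 and 41.7 RPM (reads scaled to library total only) in DMSO + OHT against 35.0 and 30.8 in DMSO. Its log2 change was 0.45 (SE 0.09, voom adjusted p = 0.00033).

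The steepest rises among members, in Rrp9 and Rrp12, were of small-subunit processome and 40S factors. As classes these did not all rise most. Median log2 changes were 0.78 for UtpA, 0.65 for other processome factors and 0.43 for late 40S factors, the last being the lowest of the roles. Rrp9, which binds the U3 snoRNA of the processome, had 35.3 and 28.7 RPKM in DMSO + OHT, against 13.1 and 11.0 RPKM in DMSO (log2 change 1.34, SE 0.10, limma adjusted p = 2e-06). Rrp12, an export factor of pre-ribosomes, had 9.73 and 8.10 RPKM in DMSO + OHT and 3.60 and 2.98 RPKM in DMSO (log2 change 1.21, SE 0.09). In both genes every OHT library lay well above every DMSO library. Heatr1, of the UtpA complex that joins ribosomal RNA transcription to processing, had 13.8 and 12.8 RPKM in DMSO + OHT, against 6.92 and 6.11 RPKM in DMSO (log2 change 0.93, SE 0.07). All 4 UtpA genes rose, Wdr43 the least (0.47), as did all 5 late 40S genes, of which Ltv1, needed for late 40S maturation and export, changed the least (0.34). The RNA helicase Ddx52 did not pass, with 17.4 and 16.6 RPKM in DMSO + OHT and 16.0 and 14.2 RPKM in DMSO (limma adjusted p = 0.065).

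Factors of the 60S subunit rose in 21 of 22 genes, all 3 of the PeBoW complex among them. Rrp1b, a nucleolar protein of 60S assembly, had 9.98 and 8.91 RPKM in DMSO + OHT, against 4.53 and 3.53 RPKM in DMSO (log2 change 1.06, SE 0.09). Within PeBoW, Wdr12 had 8.17 and 7.77 RPKM in DMSO + OHT and 4.18 and 3.65 RPKM in DMSO (log2 change 0.87, SE 0.08), and Pes1 changed less (0.42, SE 0.07). Gnl3l, a GTP-binding nucleolar protein, did not pass, with 14.9 and 14.1 RPKM in DMSO + OHT against 13.5 and 12.3 RPKM in DMSO (limma adjusted p = 0.079).

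**Figure D2:**
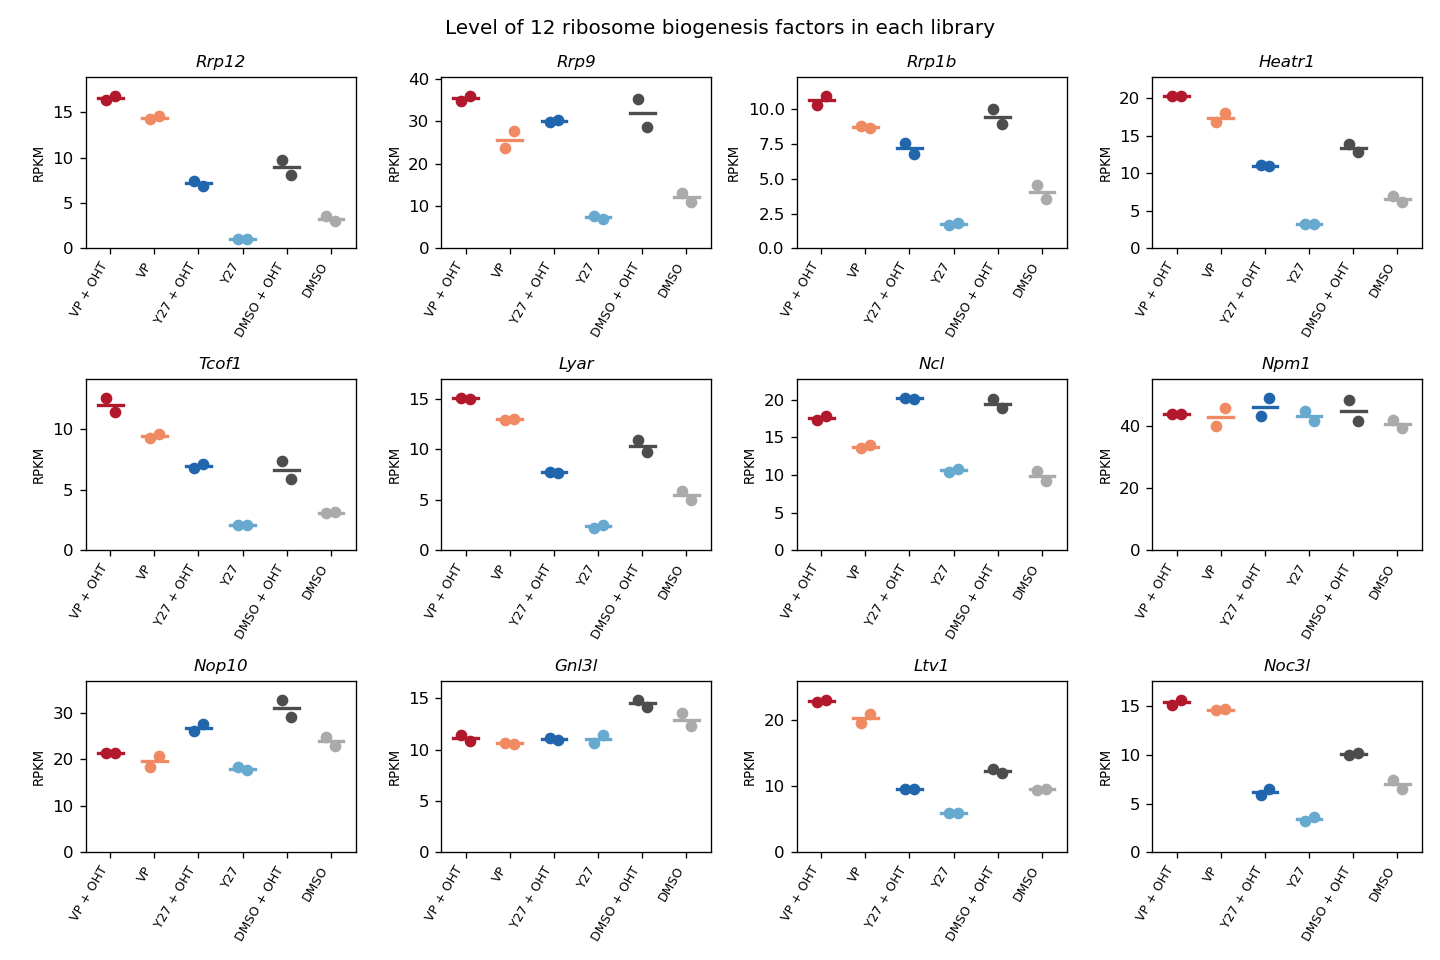
RPKM of 12 members by group, each dot 1 library and each bar the mean of 2. Rrp12, Rrp9, Rrp1b, Heatr1, Tcof1 and Lyar are lower in Y27 and higher in DMSO + OHT than in DMSO, Npm1 is flat at 39.4 to 49.1 RPKM, and Nop10 and Gnl3l are lower in VP than in DMSO.

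VP without OHT raised nearly as many members as OHT did. In VP libraries 53 members were higher than in DMSO (27% of all tested genes were) and 2 were lower (40.8% of all genes). The median log2 change was 0.71 over the members and -0.08 over all genes as scaled by the authors. The slightly lower median gene depended on that scaling. With median-ratio scaling the median over all genes was 0.0054, with quantile normalization 0.019, and scaled to reads in genes 0.0092. Over all genes the calls were 2959 higher and 4476 lower, and 4080 and 3927 with quantile normalization, which called 54 members higher and 2 lower. The DMSO libraries are shared with the OHT comparison. Rrp12 had 14.2 and 14.6 RPKM in VP, against 3.60 and 2.98 RPKM in DMSO (log2 change 1.85, SE 0.09, limma adjusted p = 1.3e-09). Tcof1 had 9.31 and 9.61 RPKM in VP and 3.07 and 3.12 RPKM in DMSO (log2 change 1.35, SE 0.08). Heatr1 followed with 16.8 and 18.0 RPKM in VP, against 6.92 and 6.11 RPKM in DMSO (1.29, SE 0.07). For these genes VP libraries lay above DMSO + OHT libraries too. By role, median log2 changes were 1.05 for UtpA, 1.03 for other processome factors and 1.02 for late 40S factors, against 0.45 for box C/D, 0.42 for H/ACA and 0.42 for PeBoW genes. The change with VP also differed by level. Its median was 0.56 over 16 members of at least 20 RPKM and 0.69 over 25 members of 10 to 20 RPKM. Over 16 members under 10 RPKM it was 1.004. Whether level, or a ceiling on reads per base, had a part in the contrast between roles was not tested.

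Nop10 and Gnl3l moved the other way. Nop10 had 18.4 and 20.8 RPKM in VP, against 24.8 and 23.0 RPKM in DMSO (log2 change -0.27, SE 0.08, limma adjusted p = 0.0083), a call lost without DMSO replicate 1 or without VP replicate 1, each of which left 1 member lower. Gnl3l had 10.7 and 10.5 RPKM in VP and 13.5 and 12.3 RPKM in DMSO (log2 change -0.26, SE 0.06, limma adjusted p = 0.0026). Npm1 with 39.9 and 45.8 RPKM in VP and Imp3, a U3 snoRNP protein, at a log2 change of 0.08 did not pass. Set directly against OHT, both VP libraries lay above both DMSO + OHT libraries in 31 members (27.3% of all genes) and both DMSO + OHT libraries above both VP libraries in 14 (55.8% of all genes). This difference was described and not tested. Ncl, for one, had 13.6 and 14.0 RPKM in VP and 20.1 and 19.0 RPKM in DMSO + OHT.

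**Figure D3:**
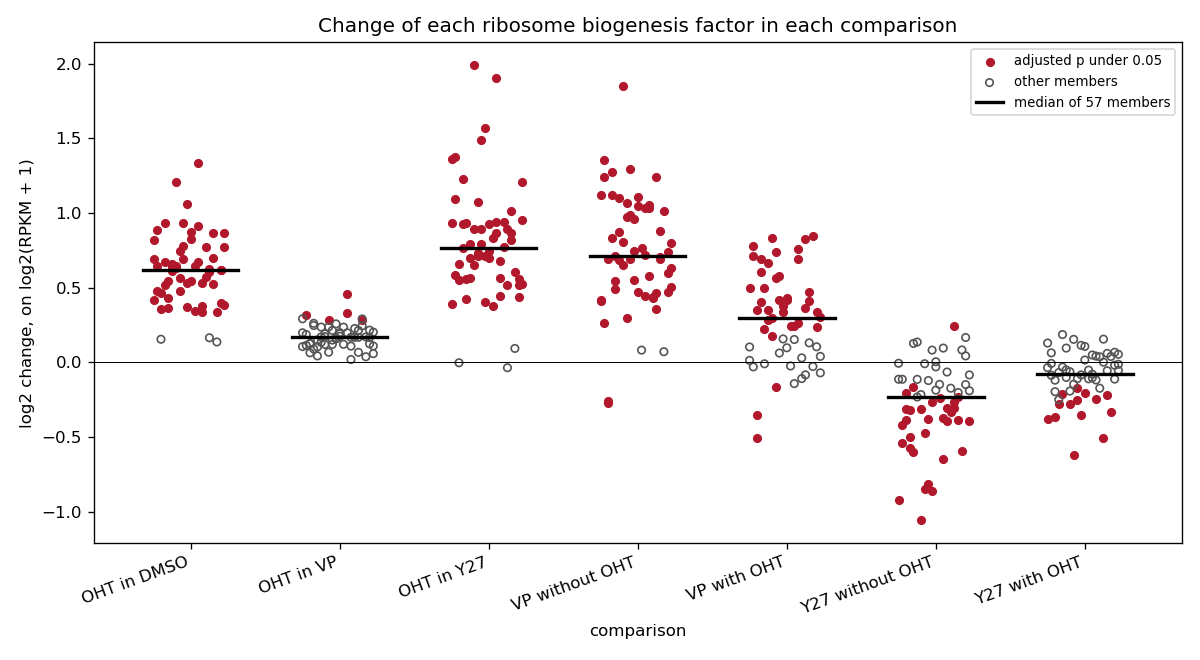
Log2 change of each of 57 members in 7 comparisons (y axis, on log2(RPKM + 1)), filled where the limma adjusted p was under 0.05, with the median as a bar. Medians are 0.62 for OHT in DMSO, 0.17 for OHT in VP, 0.77 for OHT in Y27, 0.71 for VP and -0.23 for Y27 without OHT.

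OHT added little on top of VP. In VP + OHT, 5 members were higher than in VP (5.34% of all tested genes) and 0 were lower (0.502%), with a median log2 change of 0.17 over the members and 0.08 over all genes. At an unadjusted p under 0.05, 27 members were higher (20.5% of all tested genes) and 0 lower (2.22%). Voom on whole reads called 11 members higher (7.63% of the genes in that fit) and 0 lower (0.776%). The members called were Rrp9, Ncl, Tcof1, Utp20 and Ebna1bp2. Rrp9 had 34.9 and 36.1 RPKM in VP + OHT, against 23.6 and 27.7 RPKM in VP (log2 change 0.46, SE 0.10, limma adjusted p = 0.024). Ncl had 17.3 and 17.8 RPKM in VP + OHT and 13.6 and 14.0 RPKM in VP (log2 change 0.33, SE 0.07, limma adjusted p = 0.013). Tcof1 had 12.6 and 11.4 RPKM in VP + OHT and 9.31 and 9.61 RPKM in VP (log2 change 0.31, SE 0.08, limma adjusted p = 0.048), a call lost in 18 of the other fits. These counts rested on single libraries: the count was 0 without either of the VP + OHT libraries (replicate 1 or 2) or without VP replicate 1, and 1 without VP replicate 2. Both VP + OHT libraries lay above both VP libraries in 52 members, and in 50.3% of all tested genes. The calls over all genes were 585 higher and 55 lower as scaled by the authors, and 336 and 113 with median-ratio scaling.

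The response to OHT was smaller in VP than in DMSO, by a test of the difference itself. The interaction was called lower in 29 members (2.6% of all tested genes) and higher in 0 (1.51%), with none higher at an unadjusted p under 0.05 (9.21% of all genes) or by voom. The median difference of the log2 changes was -0.43 over the members and 0.01 over all genes, and all 57 estimates were below 0. The share of all tested genes below 0 was not counted. The 57 estimates come from the same libraries, so their common sign is not independent support. Rrp12 differed most: its change with OHT was 0.19 in VP and 1.21 in DMSO, a difference of -1.02 (SE 0.12, limma adjusted p = 0.0019). For Rrp9 the changes were 0.46 in VP and 1.34 in DMSO (difference -0.88, SE 0.15), and for Rrp1b 0.26 in VP and 1.06 in DMSO (difference -0.80, SE 0.13). Calls came from 5 of 7 nucleolar organisers, 3 of 4 UtpA genes, 8 of 13 other processome genes and 10 of 19 other 60S genes. Among late 40S genes 1 of 5 was called, with 1 of 3 PeBoW, 1 of 4 H/ACA and 0 of 2 box C/D genes. In the same order, the median differences were -0.57, -0.62, -0.44 and -0.43, then -0.325, -0.40, -0.36 and -0.39. All were thus below 0, and the difference between roles was not tested. Leaving out single libraries gave 12 to 35 calls: 14 without DMSO replicate 2, 15 without DMSO + OHT replicate 1 and 12 without VP replicate 2. Of the VP + OHT libraries, leaving out replicate 1 gave 13 calls and leaving out replicate 2 gave 14. In VP the members stood at the higher level given above before OHT, and its part in the smaller change was not tested.

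**Figure D4:**
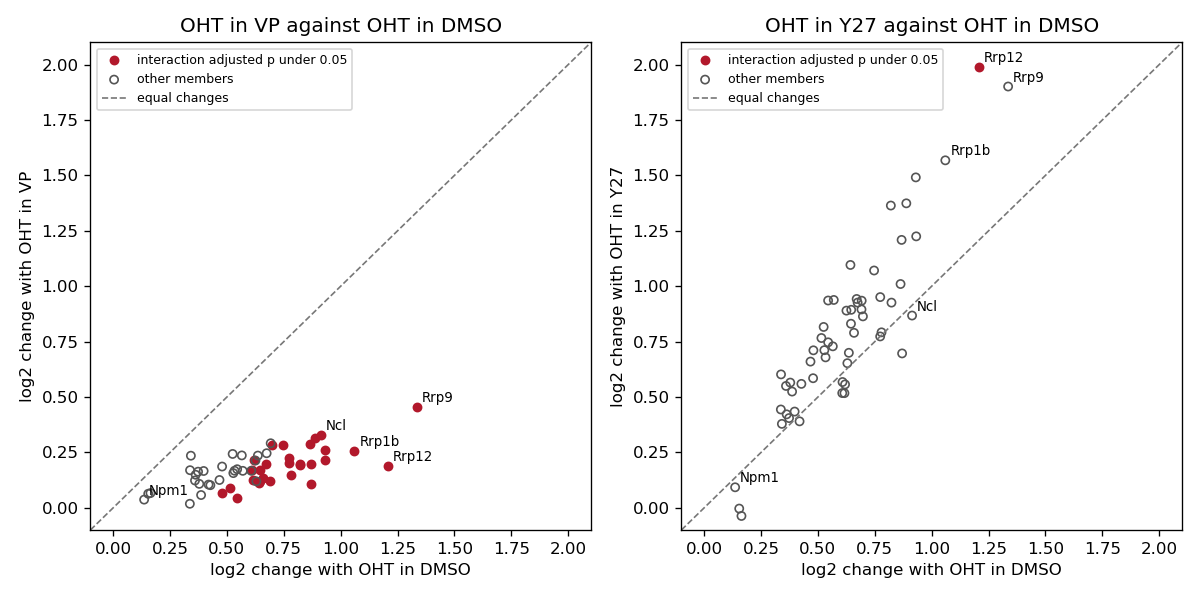
Log2 change with OHT in VP (left) and in Y27 (right) against the log2 change with OHT in DMSO, 1 point a member, filled where the limma interaction had an adjusted p under 0.05. The dashed line marks equal changes. In VP all 57 members lie below the line and 29 are filled. In Y27 46 lie above it and 1, Rrp12, is filled. The shares of all tested genes on each side of the line were not counted.

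With OHT present, VP libraries still stood above their DMSO counterparts for most members. In VP + OHT, 36 members were higher than in DMSO + OHT (25.5% of all tested genes) and 3 were lower (39.2%), at a median log2 change of 0.30 over the members and -0.09 over all genes. Ltv1 had 22.8 and 23.2 RPKM in VP + OHT, against 12.6 and 12.1 RPKM in DMSO + OHT (log2 change 0.85, SE 0.06, limma adjusted p = 3.2e-08). Rrp12 had 16.3 and 16.8 RPKM in VP + OHT and 9.73 and 8.10 RPKM in DMSO + OHT (0.83, SE 0.09). Rrs1, a 60S factor that recruits 5S ribonucleoprotein in yeast, had 21.1 and 22.0 RPKM in VP + OHT and 12.7 and 10.7 RPKM in DMSO + OHT (0.83, SE 0.10). All 5 late 40S and all 4 UtpA genes were higher, and none of the 3 PeBoW or 2 box C/D genes was called.
The lower ones were Nop10, Gnl3l and Ebna1bp2. Nop10 had 21.5 and 21.4 RPKM in VP + OHT against 32.9 and 29.1 RPKM in DMSO + OHT (log2 change -0.51, SE 0.08). Gnl3l had 11.4 and 10.9 RPKM in VP + OHT and 14.9 and 14.1 RPKM in DMSO + OHT (-0.35, SE 0.06). Ebna1bp2, a 60S factor, had 10.9 and 11.8 RPKM in VP + OHT and 13.0 and 12.7 RPKM in DMSO + OHT (-0.16, SE 0.07, limma adjusted p = 0.049), a call lost in most of the other fits. Over all genes the split was 2798 higher and 4295 lower as scaled by the authors, and 3667 and 3682 with median-ratio scaling, which called 43 members higher and 2 lower.

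Y27 without OHT went the opposite way. In Y27 libraries 31 members were lower than in DMSO (33.7% of all tested genes) and 1 was higher (17.1%). The share lower among members (31 of 57) exceeded that over all genes, and the median log2 change was -0.23 over the members and -0.07 over all genes. By level, the median was -0.17 over members of at least 20 RPKM, -0.19 at 10 to 20 RPKM and -0.41 under 10 RPKM. The reason for this difference was not tested. Rrp12 had 1.08 and 1.03 RPKM in Y27, against 3.60 and 2.98 RPKM in DMSO (log2 change -1.06, SE 0.09, limma adjusted p = 1.2e-06). Lyar, a nucleolar zinc-finger protein, had 2.24 and 2.54 RPKM in Y27 and 5.84 and 5.01 RPKM in DMSO (log2 change -0.92, SE 0.08). Rrp1b had 1.69 and 1.81 RPKM in Y27 and 4.53 and 3.53 RPKM in DMSO (log2 change -0.86, SE 0.09). In each of these the groups were far apart, whereas Ncl (10.4 and 10.8 RPKM in Y27, 10.5 and 9.28 RPKM in DMSO) and Npm1 (44.7 and 41.7 RPKM in Y27, 42.0 and 39.4 RPKM in DMSO) did not pass. Nhp2 was the member that rose, with 18.2 and 18.8 RPKM in Y27 and 16.9 and 14.1 RPKM in DMSO (log2 change 0.24, SE 0.09, limma adjusted p = 0.038). The scaling bore on the rises: 6 of 57 members were higher with median-ratio scaling and 6 with quantile normalization. These shares were below those over all genes, of which 2901 of 10940 and 3245 of 10958 were higher. Nhp2 was not called without DMSO replicate 2 or without any single library of Y27 or of VP + OHT, each of which left 0 higher. Over all genes the calls were 1872 higher and 3689 lower, and 2901 and 3263 with median-ratio scaling. Both of the falls in Rrp12 and Rrp1b are on values near 1 RPKM, where the added 1 makes a log2 change smaller: the ratios of mean RPKM were 0.321 and 0.435.

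OHT in Y27 raised the same number of members as in DMSO. In Y27 + OHT, 54 members were higher than in Y27 (20% of all tested genes) and 0 were lower (11.8%), at a median log2 change of 0.77 over the members and 0.0035 over all genes. None was lower at an unadjusted p under 0.05 (17.3% of all genes) or by voom. Rrp12 had 7.44 and 6.88 RPKM in Y27 + OHT, against 1.08 and 1.03 RPKM in Y27 (log2 change 1.99, SE 0.09, limma adjusted p = 1.1e-08). Rrp9 had 29.9 and 30.2 RPKM in Y27 + OHT and 7.65 and 7.0 RPKM in Y27 (1.90, SE 0.10). Rrp1b had 7.55 and 6.79 RPKM in Y27 + OHT and 1.69 and 1.81 RPKM in Y27 (1.57, SE 0.09). Those not called were Npm1 (0.09, SE 0.10), Gnl3l (-0.0031, SE 0.06) and Ddx52 (-0.04, SE 0.06), the genes that also missed the threshold with OHT in DMSO. Over all genes the calls were 2193 higher and 1288 lower, and 2090 and 2147 with median-ratio scaling.

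A larger response in Y27 than in DMSO was called for 1 member. The interaction was higher in 1 member (0.0639% of all tested genes, 7 genes) and lower in 0 (0.00913%, 1 gene), at a median of 0.18 over the members and -0.04 over all genes. At an unadjusted p under 0.05, 19 members were higher (4.26% of all tested genes) and 1 lower (5.12%), and voom called 5 higher (0.494%) and 0 lower (0.0618%). The gene was Rrp12, with changes with OHT of 1.99 in Y27 and 1.21 in DMSO (difference 0.78, SE 0.12, limma adjusted p = 0.040). That call was lost in the leave-one-out fits except those without DMSO replicate 2 or DMSO + OHT replicate 1, each of which called 2 members. Its level with OHT was 7.44 and 6.88 RPKM in Y27 + OHT and 9.73 and 8.10 RPKM in DMSO + OHT.

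With OHT present, Y27 left the members near their level in DMSO + OHT. In Y27 + OHT, 14 members were lower than in DMSO + OHT (33.1% of all tested genes) and 0 were higher (10.3%), so the share lower among members was below that over all genes. The median log2 change was -0.08 over the members and -0.10 over all genes. At an unadjusted p under 0.05, 1 member was higher (12.7% of all tested genes), and voom called 0 higher. Noc3l, of the nucleolar complex that assembles 60S subunits, had 5.92 and 6.52 RPKM in Y27 + OHT, against 10.0 and 10.2 RPKM in DMSO + OHT (log2 change -0.62, SE 0.07, limma adjusted p = 2.5e-05). Ddx52 had 11.7 and 11.6 RPKM in Y27 + OHT and 17.4 and 16.6 RPKM in DMSO + OHT (-0.51, SE 0.06). Lyar had 7.76 and 7.66 RPKM in Y27 + OHT and 10.9 and 9.74 RPKM in DMSO + OHT (-0.38, SE 0.08). The balance depended on the scaling. Median-ratio scaling moved the median of all genes by 0.10 and quantile normalization by 0.11, and the members then gave 9 higher and 7 lower, or 8 higher and 11 lower. Without DMSO + OHT replicate 1 the count of lower members was 5, and without Y27 + OHT replicate 2 it was 7. Over all genes the calls were 1131 higher and 3623 lower, 2242 and 2676 with median-ratio scaling, and 2562 and 2555 with quantile normalization.

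The 102 other ribosome biogenesis genes tested, listed by known function, had medians of the same sign as the members and nearer 0 in the comparisons given here. With OHT in DMSO 87 rose (limma), at a median log2 change of 0.42, and 0 fell by limma or at an unadjusted p under 0.05. The lowest estimate was -0.07, for the polymerase subunit Znrd1. Polr1b, the second largest subunit of RNA polymerase I, averaged 17.4 RPKM in DMSO + OHT and 7.54 RPKM in DMSO, and Exosc6, of the RNA exosome that trims precursors, averaged 14.6 RPKM in DMSO + OHT and 5.80 RPKM in DMSO. With VP 80 rose and 1 fell (median 0.51), and the 60S factor Urb1 averaged 6.48 RPKM in VP and 1.72 RPKM in DMSO. OHT in VP raised 13, and the VP and OHT interaction was lower in 25 (median -0.28). With Y27 46 fell and 10 rose (median -0.16), Polr1b averaging 3.58 RPKM in Y27 and 7.54 RPKM in DMSO. OHT in Y27 raised 81 (median 0.45). Of all tested genes, 24.2% rose and 10% fell with OHT in DMSO (14.2% fell at an unadjusted p under 0.05). With VP 27% of all tested genes rose and 40.8% fell, and with Y27 17.1% rose and 33.7% fell. OHT raised 5.34% in VP and 20% in Y27, and the VP and OHT interaction was lower in 2.6%. The 102 genes were picked to fill out the pathway with earlier results of these data known.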

How the data were processed

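RNA-seq was made from 12 libraries of total RNA without poly(A) selection. Per the submitters' processing notes, the authors aligned reads to mm9 with TopHat2 2.0.8, used SAMtools, counted with featureCounts 1.4.5-p1 and compared groups with DESeq2 (no version stated in the sources). Whether counting used strand is not stated. The deposited per-library values are RPKM. The authors also deposited mean normalized values per comparison, treated as a score, of which only the digits were used here. Their fold changes and p-values were not used.

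Among 260052 deposited RPKM cells 46.43% had lost the decimal sign. The sign of 11016 genes was placed from whole reads, library totals found in intact values, closeness of replicates and of groups, annotated lengths (GENCODE M21) and the digits of the authors' means. 21481 genes were kept. For 36 members the place was set without the annotated length and for 21 with it. Because closeness of groups helped to place the sign, a change of 10-fold or more would have been less likely to be read as such. The step was also tried on simulated tables, with no outcome given here.

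The 12-library mean had to reach 0.5 RPKM for a gene to be tested. limma 3.58.1 (R 4.3.3) was run on log2(RPKM + 1), in 1 fit of 6 group means with 6 residual degrees of freedom, a mean-variance trend, two-sided tests and Benjamini-Hochberg adjustment over 10958 genes at 0.05. The added 1 understates changes of low genes. The fit was also tried on values simulated with independent normal noise and no lost decimal signs, with no outcome given here. Named were Ncl, Npm1 and Fbl, the members changing most and least with OHT in DMSO in each role, the 3 largest called changes in each comparison and every called member against the majority; Imp3, Imp4, Nop2, Utp18, Utp20, Dhx33, Nop58, the genes listed for the interaction and the genes outside the member list were named after their values were seen. The members and gene lists were chosen with earlier results of these data known. Alternatives were another pseudocount (0.1), other filters, scalings and models, and leaving out each library.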

Additional observations from a re-analysis of the deposited data

Results flagged for a closer look

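The change with OHT differed between VP and DMSO in 29 members by the limma interaction, always smaller in VP. As the log2 change with OHT in VP minus that in DMSO, the differences were Rrp12 -1.02, Rrp9 -0.88, Rrp1b -0.80, Wdr12 -0.76, Heatr1 -0.72, Utp15 -0.67, Mphosph10 -0.67, Noc4l -0.63, Nop16 -0.63 and Lyar -0.62. Next came Ncl -0.59, Tcof1 -0.57, Nol6 -0.57, Nolc1 -0.57, Wdr75 -0.57, Imp4 -0.55, Nle1 -0.53, Grwd1 -0.53, Nop2 -0.52 and Dkc1 -0.50. The smallest called differences were Nip7 -0.49, Ddx10 -0.47, Ddx21 -0.47, Ebna1bp2 -0.46, Nop14 -0.44, Ppan -0.43, Noc3l -0.41, Utp20 -0.41 and Surf6 -0.40.

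Between Y27 and DMSO the interaction was called for Rrp12, whose log2 change with OHT was larger in Y27 by 0.78. No group had enough libraries to look for single libraries standing apart.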

How the results depend on the processing

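Over the member genes, 11098 of the single-gene values under other settings kept their direction and their side of the threshold, 351 lost the call, 217 gained one and 1 reversed. The reversal was Npm1 in Y27 without OHT, -0.0608 with quantile normalization. The median over members of Y27 with OHT also changed sign, to 0.0435 with median-ratio scaling, and ran from -0.14 to 0.00064 over the fits that each left out 1 library, the highest without DMSO + OHT replicate 1. The cause was not tested.

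For OHT in VP the members higher were 2 with no filter, 2 with median-ratio scaling, 3 with quantile normalization, 2 when scaled to reads in genes and 11 with voom. For the VP and OHT interaction the members lower were 17 with no filter and 47 with quantile normalization. For Y27 without OHT the members higher were 0 with no filter, 6 with median-ratio scaling, 6 with quantile normalization, 3 when scaled to reads in genes and 0 with 8 libraries per inhibitor. For Y27 with OHT they were 1 with a mean of at least 1 RPKM, 9 with median-ratio scaling (7 lower), 8 with quantile normalization and 9 when scaled to reads in genes. For the Y27 and OHT interaction they were 3 with a pseudocount of 0.1, 0 with no filter, 5 with median-ratio scaling, 8 with quantile normalization, 8 when scaled to reads in genes, 0 with 8 libraries per inhibitor, 0 with no variance trend and 5 with voom. Counts over all genes follow for median-ratio scaling (10940 genes), quantile normalization (10958) and scaling to reads in genes (10962), in that order. Higher were 336, 352 and 296 for OHT in VP, and 2901, 3245 and 2134 for Y27 without OHT. For Y27 with OHT 2242, 2562 and 1857 were higher, and for the Y27 and OHT interaction 53, 48 and 92. The VP and OHT interaction was lower in 684 genes with quantile normalization. For the filter, pseudocount, variance-trend and 8-library fits, counts over all genes are not given here.

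Leaving out each library in turn gave 52 to 56 members higher for OHT in DMSO, 51 to 53 higher and 1 to 2 lower for VP without OHT, 0 to 6 higher for OHT in VP, 27 to 37 higher and 2 to 3 lower for VP with OHT, 12 to 35 lower for the VP and OHT interaction, 0 to 2 higher and 22 to 40 lower for Y27 without OHT, 53 to 54 higher for OHT in Y27, 0 to 1 higher and 5 to 17 lower for Y27 with OHT, and 0 to 2 higher for the Y27 and OHT interaction. A group left with 1 library was assumed to vary like the others. Counts over all genes are not given for these fits. A loss of calls among the members therefore cannot be told from a loss over all genes.

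Replicate numbers are not stated to pair the libraries, and deviations of same-numbered libraries correlated at -0.22 to 0.28 over 15 pairs of groups. The replicate-block counts that follow are of members only, without counts over all genes. With a replicate block 54 members were higher for OHT in DMSO, 53 higher and 2 lower for VP without OHT, 4 higher for OHT in VP, 36 higher and 3 lower for VP with OHT, 26 lower for the VP and OHT interaction, 29 lower and 1 higher for Y27 without OHT, 54 higher for OHT in Y27, 15 lower for Y27 with OHT and 1 higher for the Y27 and OHT interaction.

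With 2 libraries a group, small changes could not be detected, and levels of single genes rest on the restored decimal sign.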
